A study of Drosophila melanogaster with 12 samples.

Results

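The steroid hormone ecdysone induces a set of 5 genes in imaginal discs, and these were followed through 12 RNA sequencing libraries of Drosophila melanogaster: ImpE1, ImpE2, ImpE3, ImpL1 and Sb. Members were looked up by gene symbol, and all 5 were found among the 10893 genes of the deposited table. All 5 stood at their highest level in white prepupal (WPP) discs, dissected at the onset of puparium formation. How many of all 10893 genes were highest in that library was not counted. ImpE2 reached 5650 FPKM there, ImpE1 800, ImpL1 415, ImpE3 364 and Sb 87.7, where FPKM is a level per length of transcript and per fixed number of mapped fragments.

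The libraries came from a single white-mutant strain, w[11-18], raised at 25 °C on yeast-glucose medium, and each of the 12 groups had 1 library. Whole larvae were taken at 72, 96 and 120 h after egg laying (each ± 1 h). Whole eye-antennal discs were taken at the same ages and at WPP. Discs still joined to the cuticular mouthparts were taken at 72 h, and at 96 and 120 h discs were also divided into an eye part and an antenna part. No group carried an added allele or treatment. The sources used here do not give the number of animals per library. The whole disc contains both parts that were also sequenced alone.

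Imaginal discs are folded epithelial sacs that form the adult head and appendages. At the end of larval life a pulse of ecdysone drives disc eversion, in which the epithelium elongates and turns out to face the surface. Ecdysone binds a receptor of EcR and Ultraspiracle, whose early targets are transcription factors and whose later targets carry out the change of shape. The Imp genes were found as ecdysone-inducible transcripts on membrane-bound polysomes of discs, the E genes responding early and the L genes late. ImpE2 encodes a protein secreted at the apical face of the disc epithelium, and ImpE1 a large protein with repeats like those of the low-density lipoprotein receptor. ImpE3 was described in discs during morphogenesis. Sb (Stubble) encodes a type II transmembrane serine protease whose mutants have malformed legs and wings.

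The FPKM summed to between 939303 and 2210260 per library, and read numbers are unknown. Between 212 and 609 genes were listed at 0 in 11 libraries, and 981 in the WPP library, which therefore stands apart in that respect and is the only library of its stage. Disc identity was checked with 5 eye markers (ey, so, eya, gl, ato) and 5 antenna markers (Dll, ss, disco, Lim1, al), none of which was listed at 0 in any library. At 96 and 120 h the eye markers summed to 581 and 423 FPKM in the eye part, against 85.1 and 78.2 in the antenna part. The antenna markers summed to 271 and 234 in the antenna part and to 22.6 and 33.1 in the eye part. Whole larvae had sums of 5.45 to 21.4 for eye markers and 11.9 to 31.2 for antenna markers.

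**Figure D1:**
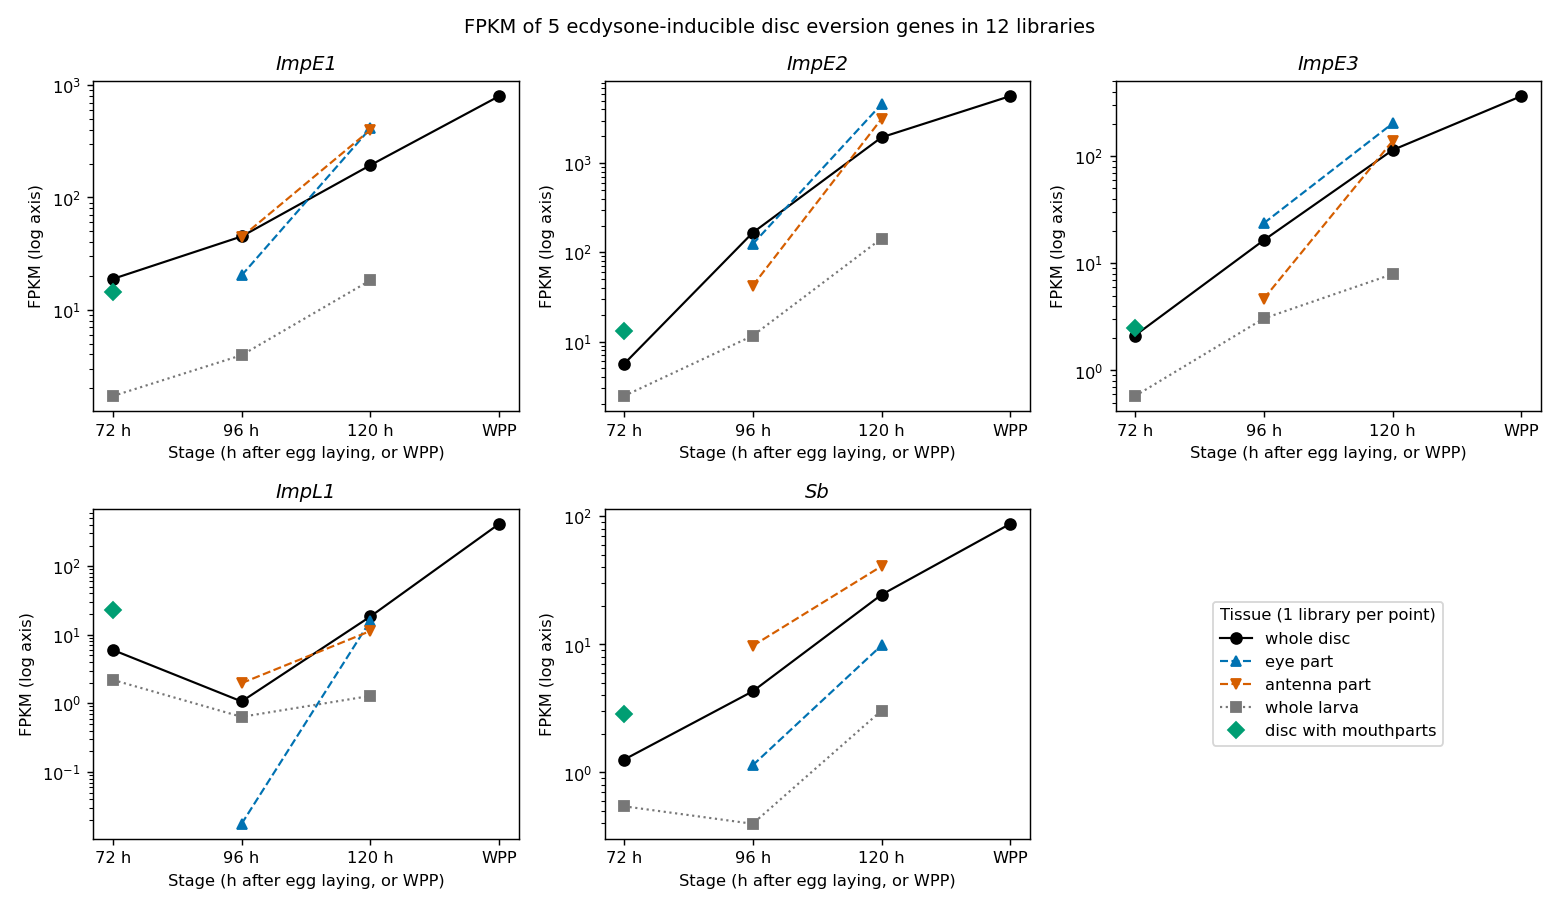
FPKM (log axis) of each gene against stage, 1 panel per gene, with 1 library per point and no error bars because no group has a replicate. All 5 genes peak in the WPP disc, ImpE1 to ImpE3 and Sb climb at each stage in the whole disc, and ImpL1 dips to 1.06 at 96 h before it climbs.

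ImpE2 (FBgn0001254) was the most abundant of the 5 in 9 of the 12 libraries. Whole discs had 5.59 FPKM at 72 h, 166 at 96 h, 1946 at 120 h and 5650 at WPP. In the eye part it went from 124 at 96 h to 4582 at 120 h, and in the antenna part from 42.3 to 3135. The 120 h and WPP disc libraries were thus far above every younger one, with no overlap. Whole larvae had 2.45, 11.6 and 143 at 72, 96 and 120 h, and discs with mouthparts 13.2. Counted from the most abundant gene, ImpE2 took place 7393 of 10893 in the whole disc at 72 h, 656 at 96 h, 88 at 120 h and 17 at WPP.

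ImpE1 (FBgn0001253) had the highest level of the 5 in the youngest disc. Its whole-disc values were 18.8 FPKM at 72 h, 45.0 at 96 h, 194 at 120 h and 800 at WPP. The eye part held 20.3 at 96 h and 414 at 120 h, the antenna part 44.4 and 400. At 120 h the parts were nearly equal, whereas the whole disc lay below both. Whole larvae had 1.71, 3.94 and 18.3, and discs with mouthparts 14.3.

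ImpE3 (FBgn0001255) was lower than ImpE2 in every library. The whole disc had 2.12 FPKM at 72 h, 16.4 at 96 h, 114 at 120 h and 364 at WPP, the eye part 23.7 and 202 at 96 and 120 h, and the antenna part 4.67 and 139. Whole larvae had 0.577, 3.06 and 7.93, and discs with mouthparts 2.47. Every disc library of 120 h or WPP exceeded every other library. ImpE3 lies within the span of CG2747 on the same strand in the annotation BDGP6.54, so the counting could have split reads between them. CG2747 ranged from 7.52 to 40.0 FPKM over the 12 libraries and ImpE3 from 0.577 to 364. Like ImpE3, CG2747 was highest at WPP and was higher in the eye part than in the antenna part at 96 and 120 h. It was also higher at 120 h than at 96 h in the eye part (30.2 against 23.4), the antenna part (26.6 against 16.8) and the whole disc (28.2 against 20.2). Whether reads were split between the genes was not tested.

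Sb (FBgn0003319), the protease gene, was the 1 member that limma called different between the eye and antenna parts. ImpE2 and ImpE3 were higher in the eye part at 96 and 120 h but were not called. The antenna part had 9.75 FPKM at 96 h and 40.9 at 120 h, against 1.14 and 9.84 in the eye part. The whole disc had 1.26 at 72 h, 4.31 at 96 h, 24.5 at 120 h and 87.7 at WPP, between the parts at both ages at which they were separated. Whole larvae had 0.545, 0.398 and 3.05, and discs with mouthparts 2.88. Sb overlaps Mic26-27 on the opposite strand, and whether the counting used strand is not given in the sources used here. Mic26-27 was lower at 120 h than at 96 h in all 3 disc pairs, the opposite direction to Sb. Its values were 81.2 against 104 in the eye part, 97.5 against 150 in the antenna part and 109 against 114.8 in the whole disc. At each of these ages Mic26-27 was higher in the antenna part than in the eye part, the same direction as Sb. Its part in the Sb values was not tested.

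ImpL1 (FBgn0001256) departed from the others in its course. Whole discs had 6.01 FPKM at 72 h, 1.06 at 96 h, 18.5 at 120 h and 415 at WPP, so that the 96 h library was the lowest of the 4. The eye part had 0.0175 at 96 h and 16.1 at 120 h, and the antenna part 1.97 and 11.4. Whole larvae also had their lowest value at 96 h, 0.635, with 2.199 at 72 h and 1.28 at 120 h. Discs with mouthparts had 23.2, the second highest ImpL1 value after WPP, and the WPP value was 17.9 times that. For the other 4 genes the WPP value was between 1.23 and 2.15 times the next highest.

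The 3 pairs of eye part, antenna part and whole disc were used to ask what changed from 96 to 120 h. Limma with terms for tissue and age was fitted over all 9081 genes on log2(FPKM + 1), which understates folds of low values. The error of this fit is how far the step differed between the tissues, of which the whole disc contains the other 2. Real differences of the step between tissues enter it, so the p-values do not measure variation between replicate collections. Sb rose by log2 2.19 (SE 0.15, adjusted p = 0.00839) and ImpL1 by 3.12 (SE 0.42, adjusted p = 0.0489). ImpE2 had the second highest estimate of all genes, 4.97 (SE 0.58, unadjusted p = 0.00122), but missed the threshold at an adjusted p of 0.0521. So did ImpE3, whose estimate was 3.46 (SE 0.44) with an adjusted p of 0.0652, and ImpE1, with 3.17 (SE 0.48) and 0.0793. Over all genes 0.947% were called higher and 1.17% lower, and the median estimate was -0.08, against 2 of 5 members called and a median of 3.17 over the 5. All 5 members were higher at 120 h in each of the 3 pairs.

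The members differed in how alike the step was in the 3 pairs. The Sb step was 2.34 in the eye part, 1.96 in the antenna part and 2.26 in the whole disc, nearly the same in each. The ImpE2 step was 5.20, 6.18 and 3.54, the ImpE1 step 4.29, 3.14 and 2.08, and the ImpE3 step 3.04, 4.62 and 2.72. For ImpL1 the steps were 4.07, 2.06 and 3.24. By a rule of size of at least 1 in log2 with 5 FPKM in the higher library, 5 of 5 members were higher in each pair, against 4.5% of genes in the eye part, 3.88% in the antenna part and 4.94% in the whole disc. A pair of single libraries has no replicate check.

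The call of ImpL1 ended with a pseudocount of 0.1 (adjusted p = 0.152, limma), without the filter on low values (0.0683), with median-ratio scaling (0.0634), with eBayes without trend and robust (0.0686) and with the eye and antenna pairs alone (0.112). With those pairs alone ImpE1 and ImpE2 were called (adjusted p = 0.0381 and 0.0043). The calls of Sb and ImpL1 ended without the eye part at 96 or 120 h, fits in which almost no gene of all those tested was called. With a library left out, the estimates ranged from 2.11 to 2.30 for Sb and from 2.65 to 3.65 for ImpL1. The call of ImpL1 also ended without either whole-disc library (adjusted p = 0.142 and 0.1, limma). ImpE2 was called by limma without either antenna library (adjusted p = 0.0219 and 0.0263) and without either whole-disc library (0.00483 and 0.00511). ImpE3 was called without either antenna library (0.00229 and 0.00165) and ImpE1 without either whole-disc library (0.0403 and 0.043). The estimates of all 5 stayed above 0 in every such fit.

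Markers of other tissues changed between the same libraries. The summed FPKM of 4 muscle genes was lower at 120 h than at 96 h in every pair (21.3 against 369 in the eye part, 152 against 3262 in the antenna part, 112 against 1452 in the whole disc), as was that of 6 fat body genes (90.1 against 453, 51.1 against 333, 46.7 against 162) and of 5 larval cuticle genes (20.3 against 227, 35.6 against 299, 29.7 against 272). The sum of 5 salivary gland glue genes was higher in every pair, at 892 against 259, 681 against 234 and 212 against 189. It reached 1036 at WPP. The sums of the 3 tracheal genes were 281 and 281, 389 against 362, and 366 against 269. Hemocyte sums of 4 genes went from 44.0 to 17.2, 36.3 to 19.0 and 28.7 to 28.3, and ring gland sums of 4 genes from 256 to 197, 957 to 322 and 682 to 286. No marker of these lists was listed at 0 in the 6 libraries, and their part in the differences of the members was not tested. In bulk tissue, fewer cells of a type and less RNA per cell cannot be told apart.

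**Figure D2:**
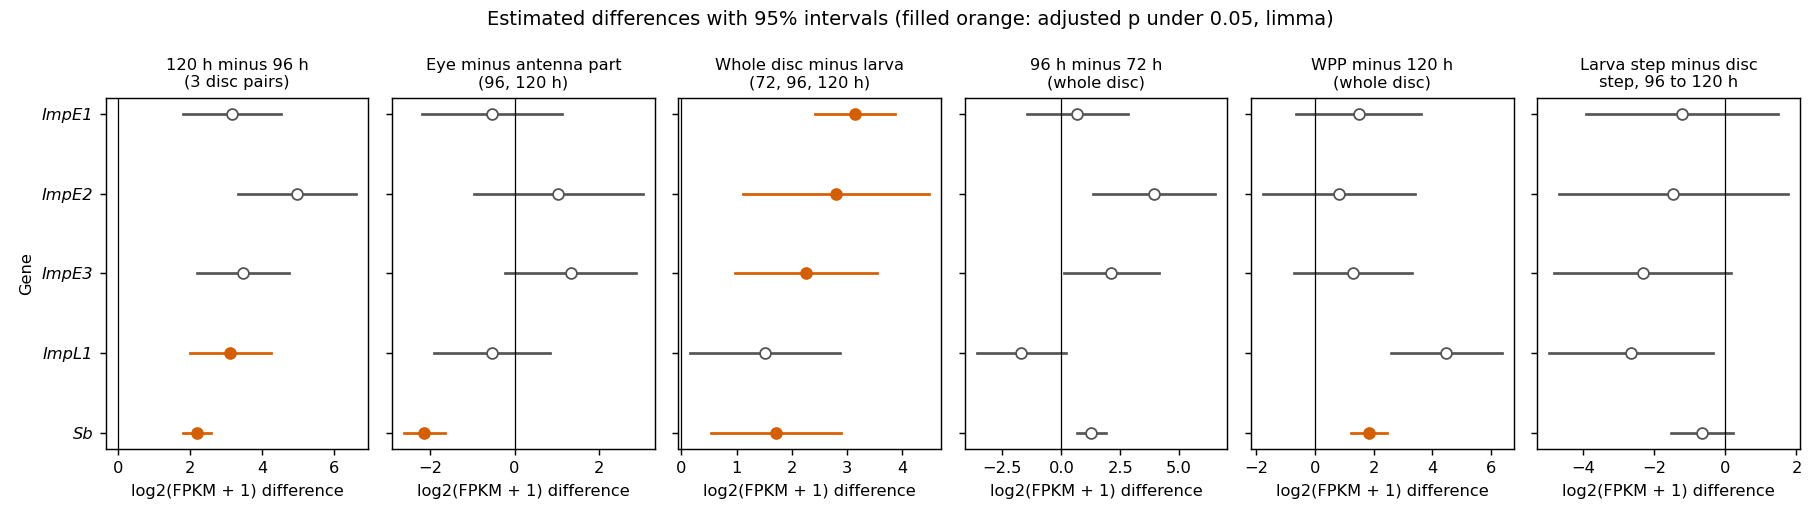
Limma estimates (points) and 95% intervals (lines) of the difference in log2(FPKM + 1) for each gene, in 6 comparisons. Filled orange points have an adjusted p under 0.05: ImpL1 and Sb for 120 h minus 96 h, Sb for eye minus antenna part, 4 genes for whole disc minus larva and Sb for WPP minus 120 h.

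The whole disc was set against the weighted mean of its parts to compare levels between libraries that hold the same tissue. The eye part was weighted at 63% at 96 h and 62% at 120 h. The median absolute deviation was 0.13 and 0.22 on the log2 scale. It was taken over the 7330 and 7171 genes with a weighted mean of at least 5 FPKM. At 120 h the whole disc had 194 FPKM of ImpE1 against 409 in the mean of the parts and 1946 of ImpE2 against 4032. Those deviations, -1.07 and -1.05, were larger in size than those of 96.3% and 96.2% of 7171 genes. ImpE3 deviated by -0.64, ImpL1 by 0.35 and Sb by 0.17. At 96 h the sign was opposite for ImpE1 (0.61) and ImpE2 (0.82), and ImpE3 and Sb lay within 0.02 of the mean. ImpE1, ImpE2 and ImpE3 in the whole disc at 120 h lay below both of its parts, a level that no mixture of those 2 libraries gives. At 96 h ImpE1 and ImpE2 lay above both parts, at 45.0 against 20.3 and 44.4 and at 166 against 124 and 42.3.

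**Figure D3:**
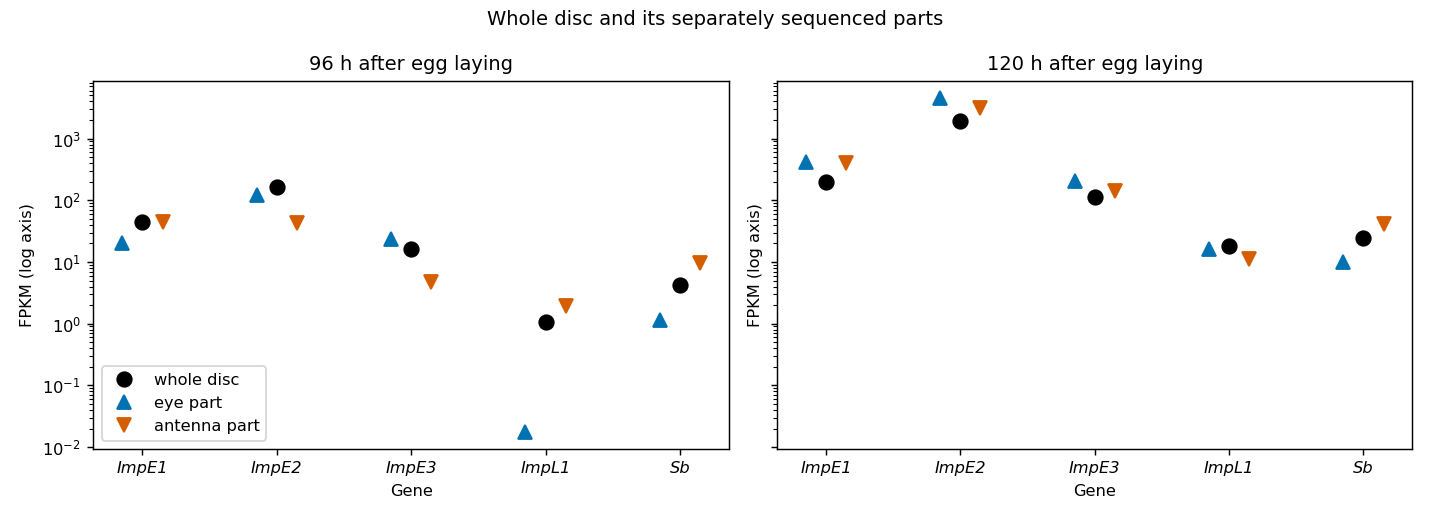
FPKM (log axis) of the 5 genes in the whole disc, the eye part and the antenna part at 96 h and 120 h, 1 library per point. At 120 h the whole disc lies below both parts for ImpE1, ImpE2 and ImpE3 and between them for Sb.

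Between the territories of the disc, Sb was lower in the eye part than in the antenna part by log2 2.14 (estimate -2.14, SE 0.19, adjusted p = 0.00931, limma), with -2.33 at 96 h and -1.95 at 120 h. It was the 1 of 5 members called, against 1.39% of all genes called lower and 1.75% called higher in the eye part. The call ended without the eye part at 96 h or at 120 h, fits in which almost no gene of all those tested was called. With a library left out, the Sb estimate stayed between -2.31 and -1.97. ImpE3 had an estimate of 1.33 (SE 0.54, adjusted p = 0.421), ImpE2 1.04 (SE 0.71, adjusted p = 0.676), ImpE1 -0.52 (SE 0.58, adjusted p = 0.83) and ImpL1 -0.54 (SE 0.52, adjusted p = 0.791). Their intervals were wide, from -0.96 to 3.04 for ImpE2 and from -2.18 to 1.13 for ImpE1, so differences of several-fold could not be seen.

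At 96 h the single eye and antenna libraries differed by the rule of size for 4 of 5 members. ImpE2 and ImpE3 were higher in the eye part (2.93-fold and 5.07-fold in FPKM; 4.21% of all genes were higher), and ImpE1 and Sb were higher in the antenna part (6.26% of all genes). At 120 h only Sb still differed by that rule, as 1 of 5 against 4.17% of genes, and ImpE1 stood at 414 and 400 FPKM. The muscle and ring gland sums were also higher in the antenna part, at 3262 against 369 and 957 against 256 at 96 h and at 152 against 21.3 and 322 against 197 at 120 h. Their part in the differences of the members was not tested.

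The step to pupariation was taken from WPP and the 120 h disc. The fit over 8 disc libraries assumes that the single WPP library varies like the paired ones, which alone give its error. Sb rose again, by log2 1.84 (SE 0.24, adjusted p = 0.0355, limma), as 1 of 5 members against 0.426% of genes called higher and 1.68% lower. The call of Sb ended without the 120 h whole disc (adjusted p = 0.122, limma) and without the eye part at 96 or 120 h. Without either eye-part library far fewer of all genes were called than in the main fit. With a library left out, the Sb estimate ranged from 1.78 to 1.91. ImpL1 had the largest member estimate, 4.48 (SE 0.68, adjusted p = 0.08, limma), place 14 of 9395 genes from the top. It was called without the antenna part at 96 or 120 h (adjusted p = 0.00478 and 0.00777), and ImpE3 without the antenna part at 96 h (0.043). The estimates of ImpE1 (1.49, SE 0.75), ImpE3 (1.30, SE 0.70) and ImpE2 (0.82, SE 0.91) did not pass, with adjusted p of 0.56, 0.598 and 0.846.

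Set directly side by side, the WPP disc had 22.5 times the ImpL1 FPKM of the whole disc at 120 h, 4.12 times the ImpE1, 3.58 times the Sb, 3.19 times the ImpE3 and 2.90 times the ImpE2. All 5 were past the rule of size, against 4.22% of genes. Compared with the eye part at 120 h, ImpE2 differed little: 5650 FPKM at WPP and 4582 there. The antenna part at 120 h had 3135. The WPP value of ImpE2 thus lay above every disc library of 120 h. Without the 120 h whole disc, which lay below its parts for both genes, the fitted WPP step of ImpE2 was -0.61 and that of ImpE1 0.41. That fit infers the 120 h disc level from the 96 h whole disc and the steps of the parts. Only the sign of the fitted ImpE2 step depended on the 120 h whole disc. ImpL1 (4.59) and Sb (1.91) kept their size in that fit. The WPP library had a glue gene sum of 1036 against 212 in the whole disc at 120 h, a fat body sum of 488 against 46.7 and a tracheal sum of 619 against 366, and their part in these differences was not tested. Of the 4 muscle genes, 1 was listed at 0 there.

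From 72 to 96 h the estimates of the members in the whole disc had both signs. The fit over 8 libraries, in which the 72 h disc is a single library, called 0 of 5 members (limma), while 0.703% of all genes were called higher and 1.22% lower. An unadjusted p under 0.05 was found for 3 of the 5, against 1398 of all 9395 genes. The estimates were 3.95 (SE 0.91, adjusted p = 0.184) for ImpE2, 2.11 (SE 0.70, adjusted p = 0.316) for ImpE3, 1.27 (SE 0.24, adjusted p = 0.0858) for Sb, 0.67 (SE 0.75, adjusted p = 0.744) for ImpE1 and -1.70 (SE 0.68, adjusted p = 0.37) for ImpL1. Limma called ImpE3 without the antenna part at 96 or 120 h (adjusted p = 0.0113 and 0.0144), ImpL1 as lower without the antenna part at 96 h (0.0483) and ImpE2 without the whole disc at 120 h (0.0335). In FPKM the single libraries differed 29.7-fold for ImpE2, 7.75-fold for ImpE3 and 2.39-fold for ImpE1, each past the rule of size (3 of 5; 4.2% of genes were higher). ImpL1 was the 1 member past the rule in the lower direction (9.24% of genes). Between the same libraries the glue sum went from 0.84 to 189, the muscle sum from 5283 to 1452, the fat body sum from 459 to 162 and the larval cuticle sum from 1277 to 272. Genes of the fat body and cuticle lists had estimates of both signs, with medians of 1.04 and 0.40. Limma called 1 of 6 fat body genes higher and 0 lower, and 0 of 5 cuticle genes higher and 1 lower. The part of these tissues in the differences of the members was not tested.

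Discs with mouthparts at 72 h had more ImpL1 (23.2 against 6.01 FPKM) and more ImpE2 (13.2 against 5.59) than discs without them, 2 of 5 members past the rule of size against 7.53% of genes. ImpE1 (14.3 against 18.8), ImpE3 (2.47 against 2.12) and Sb (2.88 against 1.26) were within it. The mouthparts library also had larger muscle (8703 against 5283), larval cuticle (2338 against 1277) and tracheal (661 against 380) marker sums, and their part in the difference was not tested.

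Whole discs were compared with whole larvae over the 3 shared ages. Limma called 4 of 5 members higher in the disc, against 35.9% of all 9993 genes called higher and 14.2% lower, so the share of the members is to be read against a high background, and the median over all genes was 0.62. ImpE1 had the largest and steadiest difference, 3.14 (SE 0.32, adjusted p = 0.000175), with 11.0, 11.4 and 10.6 times the larval FPKM at 72, 96 and 120 h. ImpE2 differed by 2.80 (SE 0.66, adjusted p = 0.0204), ImpE3 by 2.26 (SE 0.54, adjusted p = 0.0142) and Sb by 1.71 (SE 0.52, adjusted p = 0.0234). ImpL1, at 1.52 (SE 0.59, adjusted p = 0.0609), missed the threshold. With median-ratio scaling, which took the median of all genes to -0.05, ImpE1 alone remained called (2.49, adjusted p = 0.00945), and ImpE2 stood at an adjusted p of 0.0821. Without the whole disc at 96 or at 120 h ImpE1 was again the 1 member called, and without the larva at 120 h ImpE1 and ImpE3 were called. Sb was not called without the larva at 96 h (0.155), and ImpL1 was called without the disc or the larva at 72 h (0.0107 and 0.0129).

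For 4 of the genes the excess in discs was larger at 120 h than at 72 h. The disc-to-larva ratio of FPKM was 2.28 at 72 h, 14.3 at 96 h and 13.6 at 120 h for ImpE2, 3.67, 5.38 and 14.4 for ImpE3, 2.31, 10.8 and 8.04 for Sb and 2.73, 1.68 and 14.4 for ImpL1. By the rule of size 2 of 5 members were higher in the disc at 72 h (39.1% of genes), 3 at 96 h (44.4%) and 5 at 120 h (25.7%). These ratios compare 1 library with 1 and carry no test. Ring gland marker sums were also higher in discs, at 634, 682 and 286 FPKM against 8.91, 19.9 and 39.2 in larvae, with 4 of 4 genes called higher by limma, and 4 of 4 muscle genes were called lower. The part of these tissues was not tested.

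In whole larvae, 1 of 5 members, ImpE2, was past the rule of size from 72 to 96 h, against 7.6% of genes. From 96 to 120 h all 5 had a higher value, in a pair in which the median over 9848 genes was 0.60 in log2(FPKM + 1). ImpL1, at 0.48, lay below that median. ImpE2 stood at 143 against 11.6 FPKM, ImpE1 at 18.3 against 3.94 and ImpE3 at 7.93 against 3.06, 3 of 5 members past the rule of size against 20.8% of genes. Whether the larval step differed from the disc step was tested as an interaction over 8 libraries, with the single larval pair taken to vary like the disc pairs. Limma called 0 of 9983 genes (0% in either direction, 3740 with an unadjusted p under 0.05) and 0 of 5 members. The larval step minus the disc step was -2.64 for ImpL1 (95% interval -4.94 to -0.33, adjusted p = 0.111), -2.32 for ImpE3 (-4.82 to 0.17, adjusted p = 0.148), -1.46 for ImpE2 (-4.69 to 1.76, adjusted p = 0.398), -1.20 for ImpE1 (-3.90 to 1.49, adjusted p = 0.403) and -0.66 for Sb (-1.53 to 0.22, adjusted p = 0.214). The median over all genes was 0.66, and the estimates of all 5 members were below 0. That median depended on scaling and was 0.07 with median-ratio scaling.

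Genes of the hormone response gave the setting of the 96 to 120 h step. Of 22 listed ecdysone response genes 16 were matched to the table and 15 tested. An unadjusted p under 0.05 (limma) was found for 12 of these, against 1655 of all 9081 genes, and the median estimate was 0.41. After adjustment 3 rose and 0 fell, against 0.947% and 1.17% of all genes. They were Hr3, a nuclear receptor (4.88, SE 0.23, adjusted p = 0.00308), Blimp-1, a zinc finger repressor (4.81, SE 0.23, adjusted p = 0.00308), and Eip78C, a nuclear receptor (2.83, SE 0.27, adjusted p = 0.0182). The 120 h level of Hr3 was 42.3 FPKM for the eye part and 36.7 for the antenna part, and the whole disc, at 30.6, was below both. Blimp-1 had 43.5, 52.6 and 42.7 in the same libraries. From 120 h to WPP, where 0.426% of all genes rose, 1 of 16 tested genes rose and 0 fell, Cyp18a1, a cytochrome P450 that inactivates ecdysone, by 2.84 (SE 0.39, adjusted p = 0.04). It was also the 1 of 16 that fell from 72 to 96 h, against 1.22% of all genes, by -3.04 (SE 0.39, adjusted p = 0.0355).

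Further lists held genes of the apical matrix, extracellular proteases and the JNK pathway. Among 9 matched apical matrix genes with a zona pellucida domain 8 were tested for the 96 to 120 h step, and 1 rose, neo, by 1.39 (SE 0.12, adjusted p = 0.0155), with 6 unadjusted and a median of 1.17. Limma called 0 of 6 tested extracellular proteases and inhibitors (2 unadjusted, median 0.45) and 0 of 10 genes of the JNK pathway (0 unadjusted, median 0.10). Over all 9081 genes, 1655 had an unadjusted p under 0.05 for this step. Between the eye and antenna parts, the metalloprotease genes Mmp2 (3.16, SE 0.31, adjusted p = 0.0134, limma) and Tace (2.03, SE 0.30, adjusted p = 0.0408) were higher in the eye part, where Sb was lower. They were 2 of 6 tested proteases and inhibitors (0 lower, 5 unadjusted), against 1.75% of all genes called higher and 1.39% lower. Unadjusted, 1348 of all 9081 genes had a p under 0.05 between the parts. Among those not called, Timp (-1.44) and Mmp1 (-0.73) had estimates in the same direction as Sb, and kuz (0.42) and teq (0.28) in the other. From 120 h to WPP these 3 lists had 0 genes called by limma (4, 1 and 1 unadjusted for apical matrix, proteases and JNK, against 1224 of all 9395 genes). In discs against larvae, where 35.9% of all genes were called higher and 14.2% lower, 3 of 7 apical matrix genes and 3 of 10 JNK genes were higher and 0 lower, and 2 of 6 proteases were higher and 1 lower.

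All 5 genes lie on chromosome 3 (ImpE1, ImpE2 and ImpL1 on arm 3L, ImpE3 and Sb on 3R) in the annotation BDGP6.54. Their coordinates are not given because the authors used the build dm3. ImpE2 has a longest annotated transcript of 1708 nt, ImpE1 of 6099 nt, ImpE3 of 1094 nt, ImpL1 of 1230 nt and Sb of 4025 nt. The members were not next to each other. Of the nearest protein-coding genes, 2 on each side, 14 were tested for the 96 to 120 h step and 0 were called, with estimates of -0.35 to 1.16.

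CG14107, which lies head to head with ImpL1 on the opposite strand, had whole-disc values of 26.3 FPKM at 72 h, 0.562 at 96 h, 1.61 at 120 h and 33.4 at WPP. It fell by log2 -4.34 from 72 to 96 h (SE 0.40, adjusted p = 0.0213, limma) and rose by 3.51 from 120 h to WPP (SE 0.40, adjusted p = 0.0251). The discs with mouthparts again had the most at 72 h, 54.2 against 26.3. CG14110, on the other side of ImpL1, stayed below 1 FPKM in every library, with at most 0.996. CG14107 was singled out among the neighbours after its values had been seen.

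**Figure D4:**
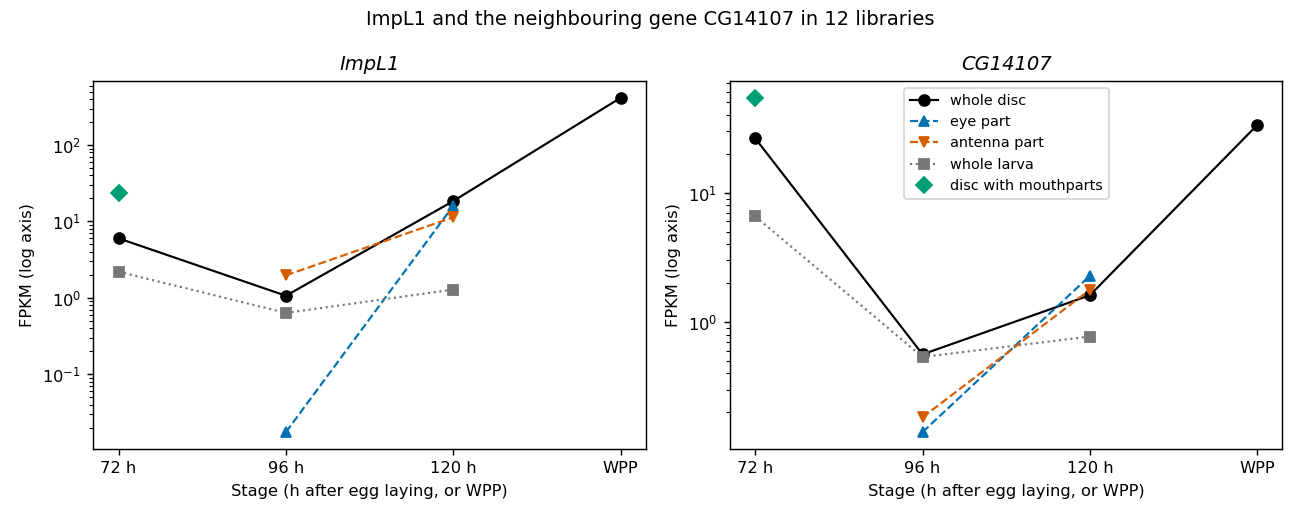
FPKM (log axis) of ImpL1 and of the adjacent gene CG14107 against stage, 1 library per point. In the whole disc both have their lowest value at 96 h (1.06 and 0.562). At WPP CG14107 is at 33.4, near its 26.3 at 72 h, and ImpL1 is at 415, far above its 6.01 at 72 h.

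Among themselves, ImpE2 and ImpE3 were the most alike (Pearson's r of log2(FPKM + 1) 0.984 over the 12 libraries), and each was the other's nearest of 9058 genes. ImpE1 had r of 0.94 and 0.939 with ImpE2 and ImpE3, and Sb had 0.925 with ImpE1, 0.855 with ImpE2 and 0.843 with ImpE3. ImpL1 was least like the rest, at 0.56 to 0.763. These values describe libraries that share ages and, for whole disc and parts, tissue. The ratio of ImpE2 to ImpE3 ran from 2.64 in the disc at 72 h to 22.7 in the eye part at 120 h, and that of ImpE2 to ImpE1 from 0.297 to 11.1 in the same libraries. In the antenna part ImpE2 and ImpE1 were about equal at 96 h (ratio 0.951) and 7.83 apart at 120 h.

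The genes nearest in course to each member over the 12 libraries differed between members. For ImpE1 they were NT1 (r 0.978) and spz6 (0.967), both of the Spätzle family of secreted Toll ligands, and luna (0.966), which encodes a Krüppel-like factor. CG4374 followed ImpE3 for ImpE2 (0.974) and ImpE2 for ImpE3 (0.976), and the last of the 3 was CG15905 (0.971) for ImpE2 and CG4914 (0.969) for ImpE3. For Sb they were CG12481 (0.963), CG15544 (0.961) and CG11438 (0.956), with CG12481 at 19.8 and 103 FPKM in the antenna part and 2.75 and 13.6 in the eye part. For ImpL1 the values were lower: tnc (0.913), the gene of the extracellular matrix protein Tenectin, CG4702 (0.903) and Acbp1 (0.902). In the authors' deposited clusters, made from these samples, ImpE1, ImpE2, ImpE3 and Sb are in cluster 3 with 948 genes (8.7% of all), and ImpL1 is in cluster 1 with 823.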

How the data were processed

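Poly(A) RNA was reverse transcribed from random hexamers and size-selected, per the labels' protocols. The submitters' processing notes name TopHat, Cufflinks and the build dm3 with no versions. No source used here names the annotation or the strand setting. The deposited values were read as FPKM, although no header names the unit, because Cufflinks was used and library sums differ. Depth is unknown, so no counting interval is given. The spread behind each p-value may be technical, and it may hold real differences of a step between tissues or of a tissue difference between ages.

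Symbols came from a table pairing 10308 of 10893 identifiers. Limma 3.58.1 in R 4.3.3 (trend and robust) was fitted on log2(FPKM + 1) to genes that reached 1 FPKM in 2 or more libraries of a fit. P-values are two-sided, adjusted by Benjamini-Hochberg over all genes tested, with a threshold of 0.05 and 2 residual degrees of freedom per fit. The fits were tested on simulated data. Tables were handled in Python 3.11.15 with pandas 2.3.3. Members and lists were chosen with earlier results of these data known. Genes named for likeness were the 3 with the highest Pearson's r for each member among genes with a symbol that reached 5 FPKM in 1 library, and genes named from a list were at most the 4 with the largest estimate past the test. Listed genes that did not match the table were not analysed here. The result of 1 list is not reported here. Alternatives covered the pseudocount, the filter, the scaling, the variance model and each library left out.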

Additional observations from a re-analysis of the deposited data

Results flagged for a closer look

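In 3 contrasts a gene ran in opposite directions in 2 settings, each seen in 1 library against 1, and the differences between the settings were not tested. Sb was higher at 96 h than at 72 h in the whole disc (1.23 in log2(FPKM + 1)) and lower in the whole larva (-0.14), where both values were under 1 FPKM. ImpE1 was lower in the eye part than in the antenna part at 96 h (-1.10) and nearly equal at 120 h (0.047). ImpL1 was lower in the eye part at 96 h (-1.55) and higher at 120 h (0.47), with an eye value of 0.0175 FPKM at 96 h.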

How the results depend on the processing

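Counts of members called are given here out of 5. For the 96 to 120 h step (2 called) the count was 1 with a pseudocount of 0.1, without the filter, with median-ratio scaling or with eBayes without trend and robust, 5 with libraries scaled to equal sums, and 0 to 4 with a library left out. For eye against antenna part (1) it was 2 with equal sums and 0 to 2 with a library left out. For disc against larva (4) it was 1 with a pseudocount of 5 or median-ratio scaling and 1 to 5 with a library left out. For 72 to 96 h (0) it was 4 with equal sums and 0 to 2 with a library left out. For 120 h to WPP (1) it was 0 with a pseudocount of 0.1 or eBayes without trend and robust, 2 with a pseudocount of 5 or equal sums, and 0 to 3 with a library left out. For the larval step (0) it was 1 with equal sums and 0 with any library left out. Among single pairs, the mouthparts count (2) was 1 with a pseudocount of 5 or equal sums, the 72 h disc against larva count (2) was 1 with a pseudocount of 5, median-ratio scaling or equal sums and 3 with a pseudocount of 0.1, and the larval 72 to 96 h count (1) was 3 with median-ratio scaling. Causes were not tested.

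Signs turned in a few fits. For eye against antenna part, ImpE1 ranged from -1.36 to 0.31 and ImpL1 from -1.34 to 0.26 with a library left out (ImpL1 0.17 without the eye part at 96 h). The 72 to 96 h estimate of ImpE1 ranged from -0.42 to 1.21 and the WPP estimate of ImpE2 from -0.61 to 1.54. The larval step of Sb was 0.15 with a pseudocount of 0.1. Over all genes, the number called was 192 for the 96 to 120 h step (95 to 839 over the alternatives, 1 to 344 with a library left out), 285 for eye against antenna part (193 to 866, 1 to 413), 5004 for disc against larva (3768 to 6532, 1345 to 4814), 181 for 72 to 96 h (85 to 727, 0 to 411), 198 for WPP (130 to 645, 32 to 338) and 0 for the larval step (0 to 781, 0 to 7). For the 96 to 120 h step, eye against antenna part, 72 to 96 h and WPP, the lowest of these numbers came without an eye-part library. The labels give no replicate numbers that groups share. No paired analysis was therefore possible beyond the matches that each fit already makes. Those are by tissue for the steps between stages, and by age for disc against larva and eye against antenna part.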
